A study of Homo sapiens with 6 samples.

Results

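The transcripts of 2 families of splicing regulators, the SR proteins (SRSF genes) and the heterogeneous nuclear ribonucleoproteins (HNRNP genes), were followed in Cal33 cells with and without added carboxylesterase 2 (CES2). Members were the entries of the deposited gene table whose symbol was SRSF followed by a number, or HNRNP followed only by letters and digits. There were 34 of them among 14136 entries, 12 SRSF and 22 HNRNP. Hyphenated read-through entries were not members. The rule used names only and no measured value, although it was set with earlier results of these data known.

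SR proteins bind exonic enhancers through RNA recognition motifs and recruit the spliceosome through a tail rich in arginine and serine, which usually favours inclusion of an exon. The hnRNP proteins coat nascent RNA and often act against SR proteins at the same exon, and several also control export, stability or translation of mRNA. Both families regulate themselves: many of their genes can splice in a poison exon or retain an intron, and the resulting transcript is destroyed by nonsense-mediated decay. In squamous carcinoma, as in other epithelial tumours, SRSF1, SRSF3 and HNRNPA1 are widely studied as growth-promoting factors.

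Cal33 is an established human line from an oral squamous cell carcinoma. All cells had been infected with lentivirus packaged in 293FT cells and selected with puromycin at 0.5 ug/ml. Whether a group is 1 clone or a mixed population is not given. The virus carried pSin-EF2 without an insert (Vector, 3 libraries) or with CES2-FLAG (CES2, 3 libraries). RNA was depleted of ribosomal RNA before strand-specific library construction. Nothing in the labels ties the 3 libraries to separate infections or cultures, so p-values reflect the variation among these samples alone and it may be technical. Each level is a TPM, an abundance per transcript length scaled to a fixed library total, so genes can be compared with each other but the read depth behind a value is unknown. In bulk RNA, fewer expressing cells and less RNA per cell cannot be told apart.

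The CES2 transcript ranged from 41.9 to 45.6 TPM in Vector and from 1929 to 2664 TPM in CES2 (log2 fold change 5.66, standard error 0.18, limma adjusted p = 7.38e-06, exact two-sided permutation p = 0.1, the smallest that 3 against 3 allows). It was the 1 gene past an adjusted p of 0.05 among 12210 tested. All 8 squamous epithelial markers had values, summing to 3428 to 4979 TPM per library, although KRT14 was at most 2.97 TPM. Of other cell types, 2 of 4 leukocyte, 3 of 3 endothelial and 1 of 5 fibroblast markers had values, with sums of 5.92 to 12.3, 10.2 to 25.8 and 3.89 to 10.5 TPM. Vector 1 and CES2 2 stood closer to each other than to their own groups: over all tested genes their log2(TPM + 1) values had r = 0.978, against 0.944 and 0.953 for Vector 1 with the other Vector libraries and 0.974 and 0.932 for CES2 2 with the other CES2 libraries. Vector 2 and CES2 3 had r = 0.976, against at most 0.968 for Vector 2 and 0.961 for CES2 3 within their own groups. These correlations are across genes, which are not independent replicates, and for CES2 2 the margin over CES2 1 was narrow. Where Vector 1 and CES2 2 were the 2 lowest libraries of a member, its log2 fold change without them is given.

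Nearly all members were abundant in Cal33. Of the 34, 33 reached at least 1 TPM in at least 3 libraries and were tested. The median of the members' mean levels was 173 TPM for the 11 tested SRSF genes and 296 TPM for the 22 HNRNP genes, against 28.1 TPM for all tested genes. HNRNPA2B1, a protein of the A/B group that also sorts RNA into transport granules, had the highest mean of all members at 2154 TPM, at percentile 99.6 of tested genes. The lowest tested members were the single-exon gene HNRNPA1L2, with a mean of 7.88 TPM, and HNRNPA1P48. SRSF12 was not tested. It was at 0.0910 and 0.155 TPM in Vector 1 and Vector 3, blank in Vector 2, and at 0.0986, 0.284 and 0.0890 TPM in the CES2 libraries. Together the tested HNRNP genes held between 0.758% and 1.15% of a library's TPM, and the SRSF genes between 0.180% and 0.238%.

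**Figure D1:**
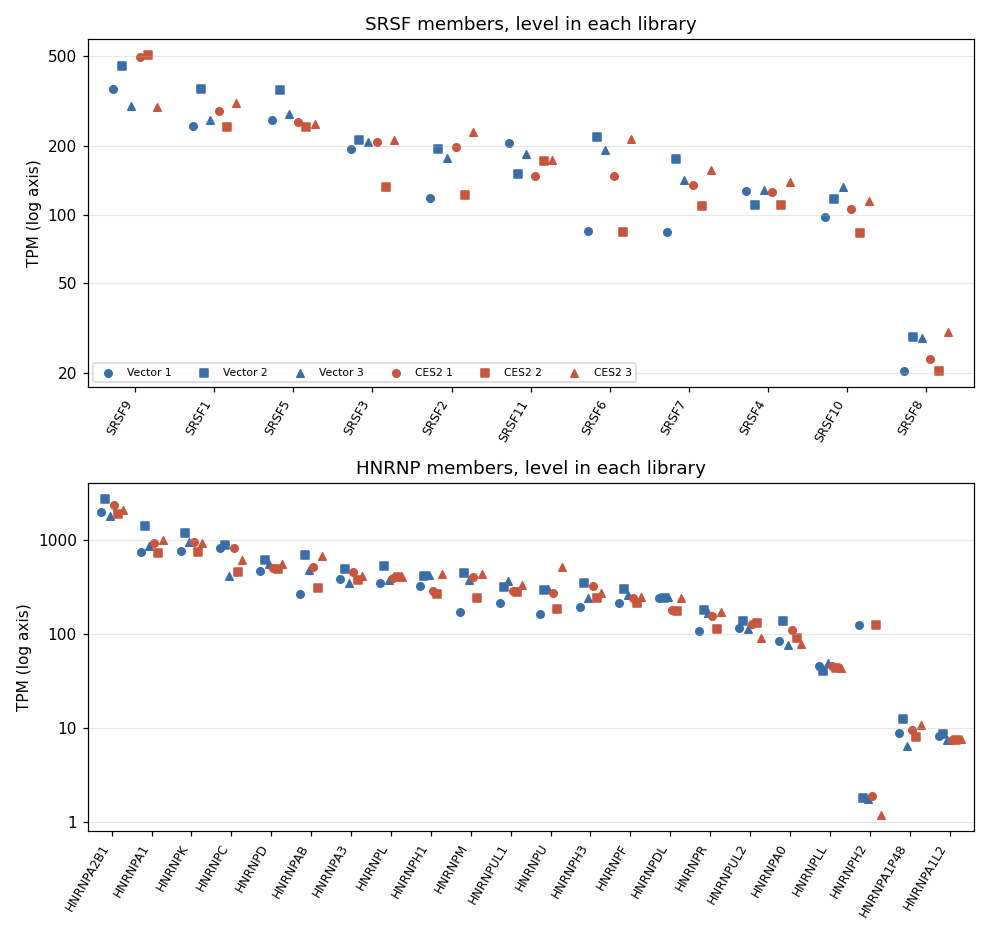
TPM of each tested member (log axis) in each of the 6 libraries, SRSF genes in the upper panel and HNRNP genes in the lower, ordered by mean level. Blue marks are Vector and red marks CES2, with circle, square and triangle for libraries 1, 2 and 3. Most genes show the blue and red marks interleaved, and HNRNPH2 splits into 2 libraries near 125 TPM and 4 below 2 TPM.

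No member of either family passed the test of CES2 against Vector. By limma, 0 of 11 SRSF and 0 of 22 HNRNP genes passed an adjusted p of 0.05, and 0 of the 33 had an unadjusted p under 0.05, where the share of all tested genes was 0.00819% for the adjusted and 1.09% for the unadjusted rule. The smallest unadjusted p was 0.118, and every member had an adjusted p of 0.9998. The median log2 fold change was -0.072 for SRSF, with 4 genes above 0 and 7 below, and -0.051 for HNRNP, with 7 above and 15 below. The median over all tested genes was -0.057, with 63.7% below 0, so neither family's tally stood away from the background. Without Vector 1 and CES2 2 the medians were -0.058 and -0.12, again with 0 members past the threshold.

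**Figure D2:**
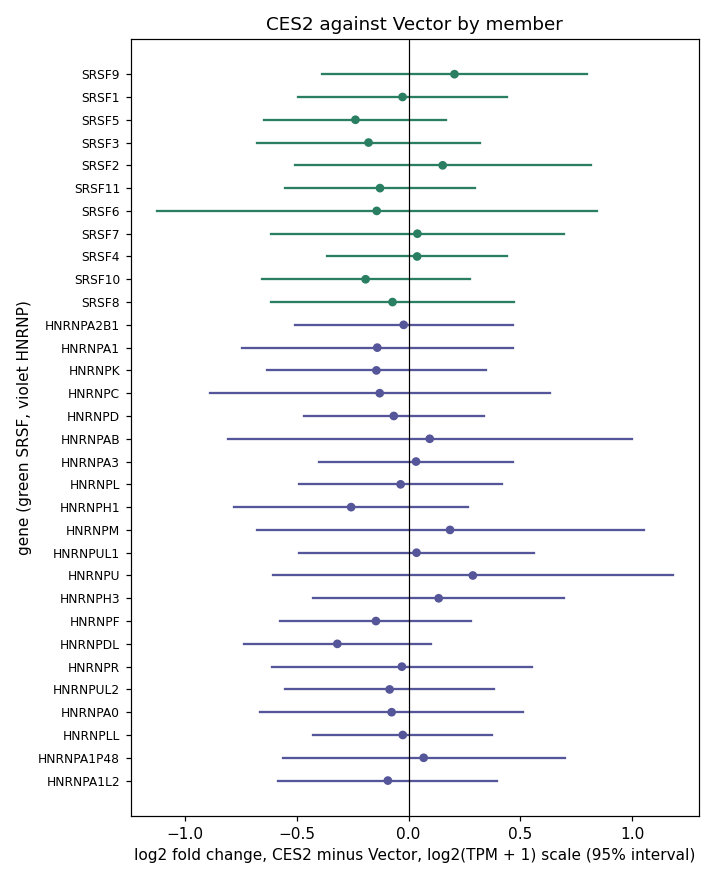
Log2 fold change of each tested member except HNRNPH2, CES2 minus Vector, with its 95% interval from the limma fit. SRSF genes are green and HNRNP genes violet, and every interval crosses 0. HNRNPH2 is left out because its interval, from -4.30 to 4.10, would compress the axis.

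The precision differed between members. Standard errors of the log2 fold change ran from 0.18 to 0.43 for SRSF genes and from 0.18 to 0.39 for HNRNP genes other than HNRNPH2. The 95% interval lay within a 2-fold change in either direction for 10 of 11 SRSF genes, the exception being SRSF6, whose lower bound was -1.13. It did so for 19 of the 21 HNRNP genes other than HNRNPH2. The exceptions were HNRNPM and HNRNPU, with upper bounds of 1.05 and 1.18.

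Among the SR proteins, SRSF5 came nearest to a separation. SRSF5, an SR protein known from insulin-regulated splicing (ENSG00000100650, chromosome 14 from 69726900 to 69772004, plus strand, GRCh38), stood at 262, 354 and 277 TPM in the Vector libraries and 256, 243 and 252 TPM in the CES2 libraries. Each CES2 library lay below each Vector library, by a narrow margin over Vector 1. The means were 298 ± 49.1 and 250.2 ± 6.62 TPM (SD, n = 3 each) (log2 fold change -0.24, standard error 0.18). The difference rested largely on Vector 2, and without it the log2 fold change was -0.11. SRSF5 was the 1 non-overlapping SRSF gene of 11, and 0 of 22 HNRNP genes were non-overlapping. Of all tested genes, 2.63% were non-overlapping and lower.

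SRSF10, a splicing repressor when it is dephosphorylated, stood at 97.7, 118 and 132 TPM in the Vector libraries and 106, 83.4 and 115 TPM in the CES2 libraries, a log2 fold change of -0.19. SRSF3, the smallest SR protein, also active in mRNA export, stood at 194, 212 and 209 TPM in the Vector libraries and 209, 133 and 214 TPM in the CES2 libraries. CES2 2 alone lay far from the other libraries of SRSF3, and the log2 fold change of -0.18 was 0.0033 without Vector 1 and CES2 2. SRSF9, the most abundant SRSF transcript here, stood at 358, 452 and 301 TPM in the Vector libraries and 496, 507 and 298 TPM in the CES2 libraries. Vector 3 and CES2 3 were its 2 lowest libraries, and the groups overlapped (log2 fold change 0.21, standard error 0.26). The log2 fold change was 0.066 without Vector 3, 0.073 without CES2 2 and 0.46 without CES2 3.

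SRSF1, the founding member of the family, stood at 247, 359 and 260.2 TPM in the Vector libraries and 286, 245 and 312 TPM in the CES2 libraries. The means of 289 ± 61.6 and 281 ± 33.9 TPM (SD, n = 3 each) differed by less than either spread (log2 fold change -0.027, standard error 0.20). SRSF4, a large SR protein with 2 RNA recognition motifs, was the steadiest of the family, from 110.1 TPM in Vector 2 to 139.6 TPM in CES2 3. SRSF11, which contacts the splice site factor U2AF, was highest in Vector 1 at 207 TPM and lowest in CES2 1 at 149 TPM. SRSF8, an intronless relative of SRSF2, stayed between 20.4 and 30.4 TPM.

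Among the HNRNP genes, HNRNPDL had the smallest p. HNRNPDL, a relative of the AU-rich element binder HNRNPD (ENSG00000152795), stood at 240.4, 246 and 252 TPM in the Vector libraries and 179, 177 and 241 TPM in the CES2 libraries. The Vector libraries and CES2 3 lay close together, CES2 3 just above Vector 1, and the other CES2 libraries were lower. The means were 246 ± 5.62 and 199 ± 36.4 TPM (SD, n = 3 each), with a log2 fold change of -0.32, a standard error of 0.18 and an unadjusted p of 0.118 (limma). Its neighbour HNRNPD on chromosome 4 (82352498 to 82373956, minus strand, with HNRNPDL at 82422564 to 82429866 on the same strand, GRCh38) stood at 465, 613 and 559.6 TPM in the Vector libraries and 502, 496 and 558 TPM in the CES2 libraries, a log2 fold change of -0.066.

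The F/H group, whose proteins read runs of guanine near splice sites, gave no separation either. HNRNPH1 stood at 326, 420.4 and 425 TPM in the Vector libraries and 290.5, 269.7 and 436 TPM in the CES2 libraries, with the highest value of all in a CES2 library (log2 fold change -0.26, standard error 0.23). Leaving out CES2 2 gave -0.12 and leaving out CES2 3 gave -0.47. HNRNPF stood at 217, 305 and 261 TPM in the Vector libraries and 241, 212 and 249 TPM in the CES2 libraries (log2 fold change -0.15, but -0.027 without Vector 2). HNRNPH3 ranged from 193 TPM in Vector 1 to 352 TPM in Vector 2, the extremes thus both lying in Vector.

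The abundant core hnRNPs varied most within Vector. HNRNPA2B1 stood at 1990.3, 2757 and 1808 TPM in the Vector libraries and 2343, 1919 and 2109 TPM in the CES2 libraries (log2 fold change -0.022, standard error 0.21). HNRNPA1, which promotes exon skipping and counteracts SRSF1, stood at 743, 1421 and 869 TPM in the Vector libraries and 933, 738 and 995 TPM in the CES2 libraries, a log2 fold change of -0.14. HNRNPK, a KH-domain protein that binds cytosine-rich RNA and DNA, stood at 765, 1187 and 967 TPM in the Vector libraries and 951, 742 and 923 TPM in the CES2 libraries, also a log2 fold change of -0.14. In all 3 genes Vector 2 was the highest of the 6 libraries. HNRNPC, which covers uridine tracts and keeps Alu-derived exons out of mRNA, was low in Vector 3 at 413 TPM and in CES2 2 at 460.0 TPM, and between 616 and 895 TPM elsewhere.

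HNRNPU, also known as scaffold attachment factor A, had the largest positive difference. It stood at 165, 293 and 303 TPM in the Vector libraries and 276, 185 and 521 TPM in the CES2 libraries. CES2 3 was far above the others, and Vector 1 and CES2 2 were the 2 lowest. The log2 fold change of 0.29 (standard error 0.39) became -0.11 without CES2 3 and 0.0033 without Vector 1. HNRNPL, which binds cytosine-adenine repeats, ranged from 352 to 532 TPM, both extremes in Vector. Its paralog HNRNPLL was the steadiest HNRNP transcript apart from HNRNPA1L2, with the highest library 1.20-fold above the lowest and means of 45.5 ± 4.18 and 44.6 ± 0.845 TPM (SD, n = 3 each). The other tested HNRNP genes (HNRNPA3, HNRNPAB, HNRNPM, HNRNPUL1, HNRNPR, HNRNPUL2, HNRNPA0, HNRNPA1P48 and HNRNPA1L2) had log2 fold changes between -0.092 and 0.19.

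By single library the median of each family was lowest in Vector 1 and CES2 2, although single HNRNP genes were often lowest in Vector 3. The median deviation of the SRSF genes from their own gene means in log2 units was -0.14, 0.20 and 0.10 for Vector libraries 1, 2 and 3, and 0.024, -0.26 and 0.15 for CES2 libraries 1, 2 and 3. For the HNRNP genes the Vector libraries gave -0.16, 0.31 and 0.0023, and the CES2 libraries 0.047, -0.16 and 0.039. Over all tested genes the same medians were 0.039, -0.086 and 0.14, and -0.00084, -0.024 and -0.049. Within a group, the library medians had an SD of 0.19 in each family, larger than either family's median fold change. Of the endothelial markers, CDH5 was also lowest in Vector 1 and CES2 2, at 8.25 and 8.75 TPM against 13.7 to 25.3 TPM elsewhere, and it set the order of the sum of all 3 (10.2 and 11.2 against 14.7 to 25.8 TPM). PECAM1 went the other way, highest there at 0.419 and 0.549 TPM, and VWF was at 1.51 and 1.87 TPM against 0.382 to 1.60 TPM. COL1A1, the 1 fibroblast marker with values, was highest there at 9.36 and 10.5 TPM, while the other 4 had none. Some squamous markers split by the same libraries. EPCAM was lowest in Vector 1 and CES2 2, at 314 and 320 TPM against 390 to 457 TPM elsewhere. TP63 (103 and 117 against 54.3 to 97.6 TPM), DSG3 (68.5 and 48.8 against 38.1 to 42.5 TPM) and KRT14 were highest there. KRT5, KRT17, KRT6A and CDH1 did neither. The part of other cell types or of library quality in this pattern was not tested.

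Vector 1 and CES2 2 were the 2 lowest libraries for 7 of 11 SRSF genes and for 9 of 22 HNRNP genes, against 20.5% of all tested genes. The 7 SRSF genes were SRSF1, SRSF2, SRSF3, SRSF6, SRSF7, SRSF8 and SRSF10. The 9 HNRNP genes were HNRNPA1, HNRNPK, HNRNPD, HNRNPAB, HNRNPM, HNRNPUL1, HNRNPU, HNRNPF and HNRNPR. Without both libraries the log2 fold change was -0.035 for SRSF1, 0.21 for SRSF2, -0.11 for SRSF8 and -0.18 for SRSF10. It was -0.21 for HNRNPA1, -0.19 for HNRNPK, -0.15 for HNRNPD, -0.20 for HNRNPF and -0.094 for HNRNPR. Values for the rest are given with those genes or in the closing section. Among HNRNP genes, Vector 1 was the lowest library for 8 of 22, against 18.4% of all tested genes. Vector 3 was the lowest for 6 of 22, against 5.74%, and CES2 2 for 5 of 22, against 20.5%. Vector 3 and CES2 2 were the 2 lowest for 4 of 22 HNRNP and 0 of 11 SRSF genes, against 2.15%. Vector 2 was the highest library for 16 of 22 HNRNP genes and for 4 of 11 SRSF genes, against 11.5% of all tested genes. CES2 3 was the highest library for 4 of 11 SRSF and 2 of 22 HNRNP genes, against 15.3% of all tested genes, and it lay above the gene mean for 9 of 11 and 14 of 22. Over all tested genes the most common 2 lowest libraries were Vector 2 and CES2 3, at 25.2%. That pair was lowest for 0 of 11 SRSF and 0 of 22 HNRNP genes. These counts describe the 6 libraries, since the genes share them and are not replicates.

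**Figure D3:**
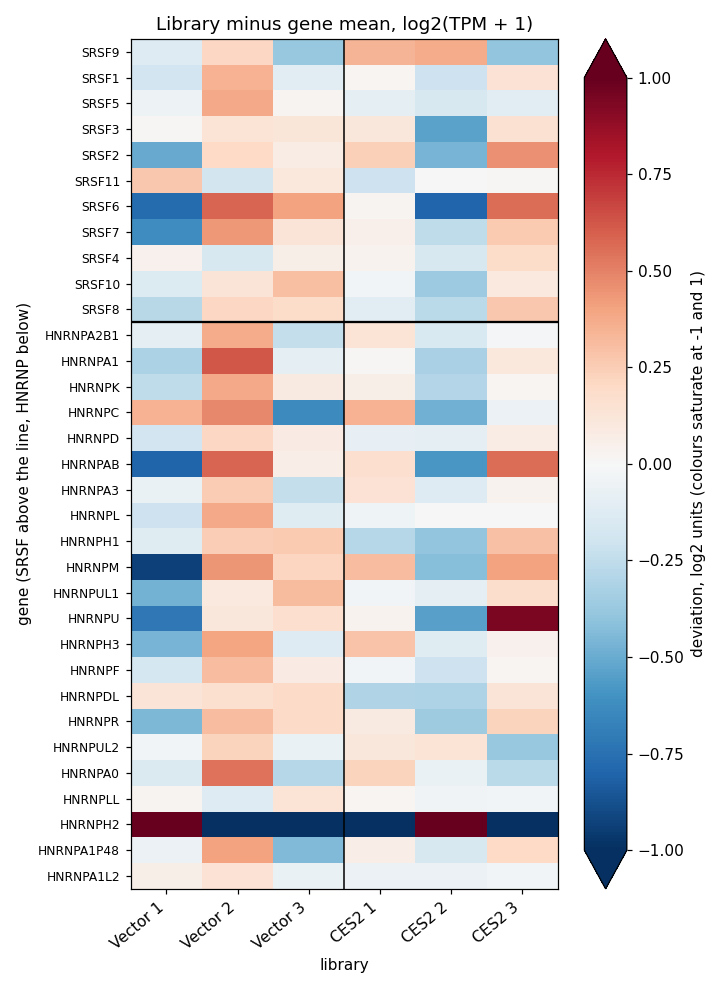
Deviation of each library from the gene's mean over the 6 libraries, on the log2(TPM + 1) scale, for the 33 tested members, SRSF above the line and HNRNP below. Red is above and blue below the gene mean, and the vertical line divides Vector from CES2. Columns Vector 1 and CES2 2 are mostly blue and Vector 2 mostly red, while the row of HNRNPH2 runs against the others.

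Apart from HNRNPH2, the members with the widest range over libraries, singled out after their values were seen, were HNRNPU, SRSF6, HNRNPAB, HNRNPM, HNRNPC and SRSF7. The highest library exceeded the lowest 3.16-fold for HNRNPU, 2.62-fold for SRSF6 and 2.61-fold for HNRNPAB, against medians of 1.59-fold over SRSF and 1.61-fold over the other HNRNP genes. SRSF6, a large SR protein linked to keratinocyte wound response, stood at 85.1, 219 and 193 TPM in the Vector libraries and 148, 83.7 and 215 TPM in the CES2 libraries. SRSF7, which carries a zinc knuckle beside its RNA recognition motif, stood at 84.3, 176 and 143 TPM in the Vector libraries and 135, 109 and 157 TPM in the CES2 libraries. HNRNPAB stood at 265, 692 and 483 TPM in the Vector libraries and 518, 307 and 679 TPM in the CES2 libraries. HNRNPM, a splicing factor tied to the mesenchymal form of CD44, stood at 172, 445 and 382 TPM in the Vector libraries and 407, 244 and 434 TPM in the CES2 libraries. In SRSF6, SRSF7, HNRNPAB and HNRNPM, Vector 1 and CES2 2 fell below the other 4 libraries. Without both libraries the log2 fold change was -0.20 instead of -0.14 for SRSF6, -0.12 instead of 0.040 for SRSF7, 0.036 instead of 0.095 for HNRNPAB and 0.027 instead of 0.19 for HNRNPM. For HNRNPU it was 0.35 instead of 0.29.

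The 150 bases upstream of the RefSeq start (GRCh38.p14) are shown for the 3 widest-ranging members, to place them beside motif counts. Capitals mark the CCAAT box, the E-box CACGTG and the TATA motif TATAAA, read on either strand and allowed to overlap.
HNRNPU (chr1:244864544-244864693, minus strand): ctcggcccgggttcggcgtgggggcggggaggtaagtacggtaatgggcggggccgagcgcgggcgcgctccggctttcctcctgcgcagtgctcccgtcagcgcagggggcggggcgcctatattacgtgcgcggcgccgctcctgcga
SRSF6 (chr20:43457746-43457895, plus strand): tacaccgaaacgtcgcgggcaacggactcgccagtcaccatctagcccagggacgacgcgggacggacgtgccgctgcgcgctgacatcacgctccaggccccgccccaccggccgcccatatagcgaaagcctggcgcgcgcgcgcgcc
HNRNPAB (chr5:178204383-178204532, plus strand): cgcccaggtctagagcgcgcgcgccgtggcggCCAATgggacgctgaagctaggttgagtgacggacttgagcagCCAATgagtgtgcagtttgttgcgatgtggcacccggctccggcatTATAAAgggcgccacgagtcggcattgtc

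The printed HNRNPAB window held 3 matches and the other 2 printed windows held 0. Whether such matches go with the range over libraries was not tested. RefSeq gave a 300-base promoter, 250 bases before to 50 after the start, for 11 SRSF and 20 HNRNP members. CCAAT was present, on either strand, in 2 of 11 SRSF and 13 of 20 HNRNP promoters, and in 35.7% of all 27305 promoters. HNRNPU was among the 13, by a match not contained in its printed 150 bases. CACGTG was present in 0 of 11 and 7 of 20, against 7.43% of all. TATAAA was present in 2 of 11 and 3 of 20, against 12.0% of all. These matches are a description of letters and not of binding.

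HNRNPH2 was the 1 member whose entry split the libraries outright. HNRNPH2 (ENSG00000126945) encodes a close relative of HNRNPH1 and lies on chromosome X of GRCh38 from 101408295 to 101414133 (plus strand, 2 exons in the listed transcript). It stood at 125, 1.83 and 1.79 TPM in the Vector libraries and 1.89, 125 and 1.19 TPM in the CES2 libraries. Vector 1 and CES2 2 were thus alike and every other library was near 0 (log2 fold change between groups -0.10, standard error 1.83, and -0.16 with a standard error of 0.42 without those libraries). The read-through entry RPL36A-HNRNPH2, which begins at the ribosomal protein gene RPL36A and runs into HNRNPH2 (101391011 to 101412297), showed the reverse. It stood at 1.72, 74.1 and 87.5 TPM in the Vector libraries and 81.0, 2.95 and 64.0 TPM in the CES2 libraries.

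The entries thus traded places library by library. HNRNPH2 made up 98.6% of the sum of both in Vector 1 and 97.7% in CES2 2, and between 1.82% and 2.41% in the other 4 libraries. The sum of both entries came to 126, 76.0 and 89.3 TPM in the Vector libraries and 82.9, 128 and 65.1 TPM in the CES2 libraries, a difference of -0.10 on the log2(TPM + 1) scale. Of 14136 entries, 5 had Vector 1 and CES2 2 both more than 4-fold above or below all other libraries, counted on TPM + 1. These were HNRNPH2, TXNIP and LEMD1 above, and RPL36A-HNRNPH2 and NPB below, with the widest gap in HNRNPH2. RPL36A itself was at 1277 and 1223 TPM in Vector 1 and CES2 2 and between 690.2 and 951 TPM elsewhere, and GLA, the gene between, was at 45.3 to 60.8 TPM throughout.

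**Figure D4:**
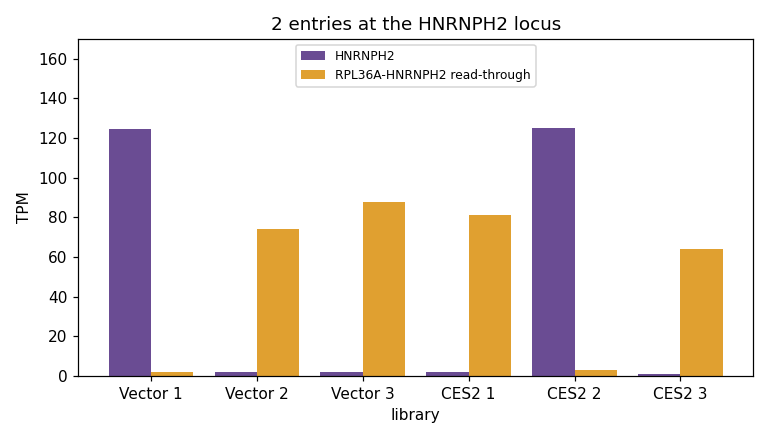
TPM of the HNRNPH2 entry and of the read-through entry RPL36A-HNRNPH2 in each library. HNRNPH2 holds nearly all of the locus's TPM in Vector 1 and CES2 2 (125 TPM in each), and the read-through entry holds it in the other 4 libraries (64.0 to 87.5 TPM).

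The entries overlap in sequence. In GENCODE 29, 362 of the 572 exon bases of the listed read-through transcript lie inside HNRNPH2 exons, and the entries share 315 of their 50-base words, 60.2% of those of the read-through and 14.5% of those of HNRNPH2. HNRNPH2 and HNRNPH1, in contrast, share 1 such word. How the authors divided reads between overlapping entries is not given in the sources used here, and whether the split reflects that step or the cells was not tested. The value of either entry is therefore uncertain, and the HNRNP median was -0.036 without HNRNPH2. The 150 bases upstream of each annotated start are shown because the entries overlap in part of their exons and differ in where they begin, with capitals as above.
HNRNPH2 (chrX:101408072-101408221, plus strand): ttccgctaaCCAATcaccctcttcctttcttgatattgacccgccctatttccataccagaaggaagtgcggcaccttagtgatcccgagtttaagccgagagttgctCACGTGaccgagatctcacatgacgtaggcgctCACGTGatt
RPL36A-HNRNPH2 (chrX:101390861-101391010, plus strand): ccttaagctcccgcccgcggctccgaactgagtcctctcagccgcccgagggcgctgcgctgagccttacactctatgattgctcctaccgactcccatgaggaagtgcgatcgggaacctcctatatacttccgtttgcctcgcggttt

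The HNRNPH2 window held 1 CCAAT and 2 CACGTG matches, and the window of the read-through held 0 of the 3 motifs. HNRNPUL2, an HNRNPU-like gene, also has a read-through partner, HNRNPUL2-BSCL2, and the shared words make up 59.3% of those of the read-through and 45.2% of those of HNRNPUL2. There the values did not trade places: HNRNPUL2 was between 91.5 and 139 TPM and the read-through between 4.98 and 9.91 TPM. HNRNPA1L2 and HNRNPA1P48, copies of HNRNPA1, shared 47.6% and 45.5% of their words with HNRNPA1 (15.5% and 17.0% of its words). The HNRNPA1 transcript is far more abundant, so the low values of both copies are uncertain. HNRNPA1L2 had 1323 words in GENCODE 29, too few for its listed length of 3011 bases. Its 47.6% thus belongs to a shorter transcript model than the listed one. GENCODE 29 classes both as protein-coding, although HNRNPA1P48 is named as a pseudogene.

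Transcript annotation was a measure that the naming rule did not use. GENCODE 29 lists at least 1 transcript of the nonsense-mediated decay class for 12 of 12 SRSF and 13 of 22 HNRNP genes, against 41.7% of the deposited entries. A retained-intron transcript is listed for 9 of 12 and 14 of 22, against 54.9%. The members also have more listed transcripts, which gives more occasions for either class. The median per gene is 8.5 for SRSF and 11 for HNRNP, against 7 for all entries. The deposited table names 1 transcript per gene, and for 4 of 34 members that transcript is of the decay class, against 6.42% of all entries. These were SRSF3, SRSF6, HNRNPU and HNRNPR, with listed lengths of 595, 1680, 5290 and 646 bases. The table gives 1 value per gene, so a productive transcript and one carrying a poison exon cannot be told apart in it, and splicing itself was not measured.

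The partners of both families in lists drawn from general knowledge showed no called gene either. Core spliceosome genes (34 tested, median log2 fold change -0.020, 14 above 0 and 20 below) had 0 past the adjusted threshold and 1 at an unadjusted p under 0.05 by limma. That gene was SNRPD2, a component of the Sm ring, at 233, 254 and 118 TPM in the Vector libraries and 121, 128 and 103 TPM in the CES2 libraries (log2 fold change -0.71, standard error 0.29, adjusted p = 0.9998). SF3B5, a subunit of the branch-site complex, did not overlap between groups, at 282 to 316 TPM in Vector and 324 to 376 TPM in CES2, where 1.07% of all tested genes were non-overlapping and higher. Vector 1 and CES2 2 were the 2 lowest libraries for 20 of the 34 core genes, against 20.5% of all tested genes. The pattern was thus not particular to the SRSF and HNRNP families, and the counts for the other lists follow.

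Kinases and importers of SR proteins (11 tested) had a median of -0.10, with 2 above 0 and 9 below. CLK3, a nuclear kinase of SR proteins, was 1 of the 2 above 0 and did not overlap, by a narrow margin over Vector 1. It stood at 75.6, 48.9 and 60.4 TPM in the Vector libraries and 76.7, 79.4 and 83.0 TPM in the CES2 libraries (log2 fold change 0.39, standard error 0.20). Of all tested genes, 1.07% were non-overlapping and higher. SR-related coactivators (15 tested) had a median of -0.064, with SREK1 at -0.21. The hnRNP proteins under other names (7 tested) had a median of 0.0030, with RALY, which sits in the same complexes as HNRNPC, at 0.29. Other alternative splicing regulators (19 of 20 tested) had a median of -0.095, with 4 above 0 and 15 below and PTBP2, a repressor known from neurons, at -0.38. Nonsense-mediated decay factors (10 tested) had a median of -0.062, with the kinase SMG1 at -0.27. None of these lists had a member past the adjusted threshold or, apart from SNRPD2, at an unadjusted p under 0.05. The 2 lowest libraries were Vector 1 and CES2 2 for 4 of 7 other hnRNP genes, 6 of 15 coactivators and 4 of 10 decay factors. For kinases and importers (2 of 11) and other splicing regulators (4 of 19) the count was near the 20.5% of all tested genes.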

How the data were processed

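The authors deposited 1 table of the whole series with TPM values for 14136 gene entries in 6 libraries. Its header names no unit, and TPM was inferred from column totals of 999804 to 999893. Per the submitters' processing notes, the tools were StringTie 1.3.3, HISAT2 2.1.0 and edgeR 3.0.8 and the builds GRCh38 and hg38, with no role for each. The sources used here do not give the annotation, filters or strand handling. The table also lists a transcript length in bases, which was only described. Blanks (73 to 279 per library) were read as 0.

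The 12210 genes at 1 TPM or more in 3 or more libraries were transformed as log2(TPM + 1) and compared by limma 3.58.1 (R 4.3.3) with an intensity trend, group as the only term and Benjamini-Hochberg adjustment over all tested genes at 0.05. Fold changes are on that scale, which understates changes of low genes. The fit was run on simulated data with independent noise for each value. That noise lacked shifts shared by a library, so the run says little about the pattern of Vector 1 and CES2 2. Groups came from the sample titles. Members and lists were chosen with earlier results of these data known. Given in full were, in each family, the 4 members with the smallest p and the 3 most abundant. Of each list at most 3 genes with the smallest p were named. Shared words were exact 50-base matches between GENCODE 29 transcripts, whose lengths can differ from the listed ones. Alternatives left out each library in turn and changed the pseudocount, the low-value filter, the scaling, the variance model, the weights, the threshold and the replicate block. The alternatives without Vector 1 and CES2 2 and without HNRNPH2 were chosen after seeing the data.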

Additional observations from a re-analysis of the deposited data

How the results depend on the processing

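Across every alternative run, 0 members passed an adjusted p of 0.05, and 0 passed at 0.1. The lowest adjusted p of a member was 0.858, for HNRNPDL with library weights (log2 fold change -0.44, limma). The weight was 6.86 for CES2 1 and between 0.513 and 1.12 for every other library. The CES2 side of every result with library weights thus rests mostly on CES2 1. Unadjusted p under 0.05 was reached by HNRNPDL without CES2 3 (as by 256 of all genes there) and, with library weights, by HNRNPDL, SRSF9 and HNRNPH1 (as by 621 of all genes there). The count over all genes was 1, but 2 without Vector 1 and CES2 2, 4 with library weights and 1 to 2 when each library was left out. The log2 fold change of CES2 stayed between 5.54 and 5.78 on leaving out a library. The family medians moved within the SD of library medians: leaving out each library in turn gave -0.22 to 0.069 for SRSF and -0.16 to 0.11 for HNRNP, so neither median has a stable sign.

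With the replicate number as a block, 0 members and 1 gene in all passed. The labels do not say whether equal numbers pair the libraries. Same-numbered deviations from the group means had r = 0.145, -0.524 and 0.375 across genes, while Vector 1 with CES2 2 had 0.682. Deviations within a group constrain each other, so these values do not settle the pairing.

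Signs of small differences turned. Leaving out each library in turn gave log2 fold changes across 0 for 25 members: HNRNPA0 -0.24 to 0.18, HNRNPA1 -0.33 to 0.13, HNRNPA1P48 -0.14 to 0.28, HNRNPA2B1 -0.15 to 0.16, HNRNPA3 -0.075 to 0.17, HNRNPAB -0.28 to 0.41, HNRNPC -0.48 to 0.079, HNRNPD -0.18 to 0.022, HNRNPH2 -1.99 to 1.72, HNRNPH3 -0.065 to 0.36, HNRNPK -0.31 to 0.011, HNRNPL -0.15 to 0.15, HNRNPLL -0.095 to 0.035, HNRNPM -0.23 to 0.45, HNRNPR -0.26 to 0.14, HNRNPU -0.11 to 0.63, HNRNPUL1 -0.19 to 0.20, HNRNPUL2 -0.17 to 0.082, SRSF1 -0.13 to 0.14, SRSF2 -0.061 to 0.42, SRSF3 -0.30 to 0.043, SRSF4 -0.043 to 0.13, SRSF6 -0.56 to 0.22, SRSF7 -0.26 to 0.27 and SRSF8 -0.23 to 0.047. The other 8 members kept their sign, at SRSF5 -0.32 to -0.11, SRSF9 0.066 to 0.46, SRSF10 -0.31 to -0.058, SRSF11 -0.25 to -0.025, HNRNPDL -0.46 to -0.24, HNRNPF -0.27 to -0.027, HNRNPH1 -0.47 to -0.12 and HNRNPA1L2 -0.15 to -0.043. Median rescaling gave SRSF1 0.035, HNRNPA2B1 0.040, HNRNPL 0.026, HNRNPR 0.032 and HNRNPLL 0.036. Quantile normalization gave SRSF8 2.9e-04, HNRNPUL1 -0.0044 and HNRNPLL 0.027. Library weights gave SRSF1 0.035, HNRNPA2B1 0.16, HNRNPC 0.35, HNRNPUL1 -0.071, HNRNPR 0.014, HNRNPUL2 0.073, HNRNPA0 0.22 and SMG1 0.015. Without Vector 1 and CES2 2 the values were 0.0033 for SRSF3, -0.12 for SRSF7, 0.22 for HNRNPC and -0.14 for HNRNPUL1. The cause was not tested. TPM keeps no depth, so no counting error can be set beside these values.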
